A study of Mus musculus with 7 samples.

Results

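The callosal projection neuron markers described here are 10 genes, Lpl, Gfra2, Chn2, Hspb3, Dkk3, Ptn, Cited2, Tmtc4, Ptprk and Nnmt, out of 16144 genes tested in mouse whole neocortex. They were chosen as known markers of callosal neurons, with earlier results of these data known. Each was read from the probe set whose only annotated gene symbol is that member. Each member had 1 such probe set, and all 10 passed the filter on dim probe sets. The study hybridised total RNA of C57BL/6 tissue to 7 Affymetrix arrays with 1 colour each. A group of 4 arrays is labelled CKO, with a genotype given as COUP-TFI and Nex-Cre (CKO 1, CKO 4, CKO 34 and CKO 43), and 3 arrays are labelled wild type (WT 6, WT 27 and WT 38). Signals are log2 values summarised per probe set by RMA (robust multi-array average), so a difference of 1 is a 2-fold change in signal. Differences are CKO minus WT, tested gene by gene with limma, a linear model that shares information on the spread between genes. The labels give an RNA integrity number of 10 and 0.2 µg of input RNA for each sample. The sources used here do not state the age of the mice, or whether the WT animals carried Cre or an altered COUP-TFI allele. Nothing in the labels says that each array came from a separate mouse, so p-values here reflect only how much these samples vary, and that variation may be technical.

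Callosal projection neurons are glutamatergic neurons of the neocortex, most of them in the upper layers, whose axons cross the midline in the corpus callosum to reach the opposite hemisphere. Bcl11b (CTIP2) and Fezf2 mark and specify another class, the corticofugal neurons of the deep layers that project below the cortex. The orphan nuclear receptor COUP-TFI (gene Nr2f1) patterns cortical areas and restrains corticofugal identity in sensory cortex. Nex-Cre expresses the recombinase from the Neurod6 locus in glutamatergic neurons after their last division, so progenitors, glia and interneurons keep the gene. The comparison asks how the markers of callosal neurons differ in signal between CKO and WT neocortex. In whole tissue, fewer cells of a type and less RNA per cell cannot be told apart.

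The arrays had the same median log2 signal of 8.23. Nr2f1 was lower in CKO, between 10.60 and 10.79 against 10.88 to 11.16 in WT, a log2 difference of -0.36 (SE 0.074, limma adjusted p 0.435). The sources used here do not tell whether its probe set lies in the altered part of the gene, so this difference is no check of the labels. Neocortical markers were measured on each array, with Emx1 between 10.33 and 10.66 and Neurod2 between 13.06 and 13.21. Gbx2, a marker of the thalamus, lay between 7.95 and 8.13 and En2, a marker of the midbrain and cerebellum, between 7.10 and 7.32, where the filter on dim probe sets was 6.84; signals of different probe sets cannot be compared. CKO 43 stood apart in genes of the sex chromosomes, with Xist at 13.08 against 6.22 to 6.39 on the other 6 arrays and the Y-linked gene Eif2s3y at 5.16 against 10.24 to 10.78. Of the 4 such genes tested none had an unadjusted p under 0.05 between the groups with limma. High Xist with low Y-linked signal is the pattern of a female sample. The other 6 arrays had the male pattern, so the sex pattern was mixed in CKO only. The array identifiers in the labels fall into 3 series by their first differing digits. Series 1 held CKO 1 and CKO 4, series 2 held CKO 34, CKO 43, WT 27 and WT 38, and series 3 held WT 6. By a later stretch of digits WT 6 falls in with series 2, which leaves 2 series. The sources used here do not say whether the series were processed apart.

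The callosal markers differed from WT in both directions. Lpl was lower in CKO to 0.685 of the WT signal, Gfra2 was higher 1.30-fold and Chn2 higher 1.11-fold, and the other 7 members differed by at most 0.10 on the log2 scale, with groups that overlapped. None of the 10 members passed an adjusted p of 0.05 in the limma fit over all genes, where 0.0248% of genes (4 of 16144) did. At an unadjusted p under 0.05 there were 3 members, 2 higher and 1 lower, against 6.79% of all genes tested (4.17% higher and 2.61% lower). The same 3 members had groups that did not overlap, against 8.38% of all genes (5.39% higher and 2.99% lower in CKO). Lpl, Gfra2 and Chn2 were singled out with these results known, and the 10 members were chosen with earlier results of these data known. The counts of members are therefore a description and no independent result about callosal markers. The median log2 difference of the 10 members was 0.03, beside 0.01 for all genes tested, and 6 of the 10 differences were positive, beside 58.9% of all genes.

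**Figure D1:**
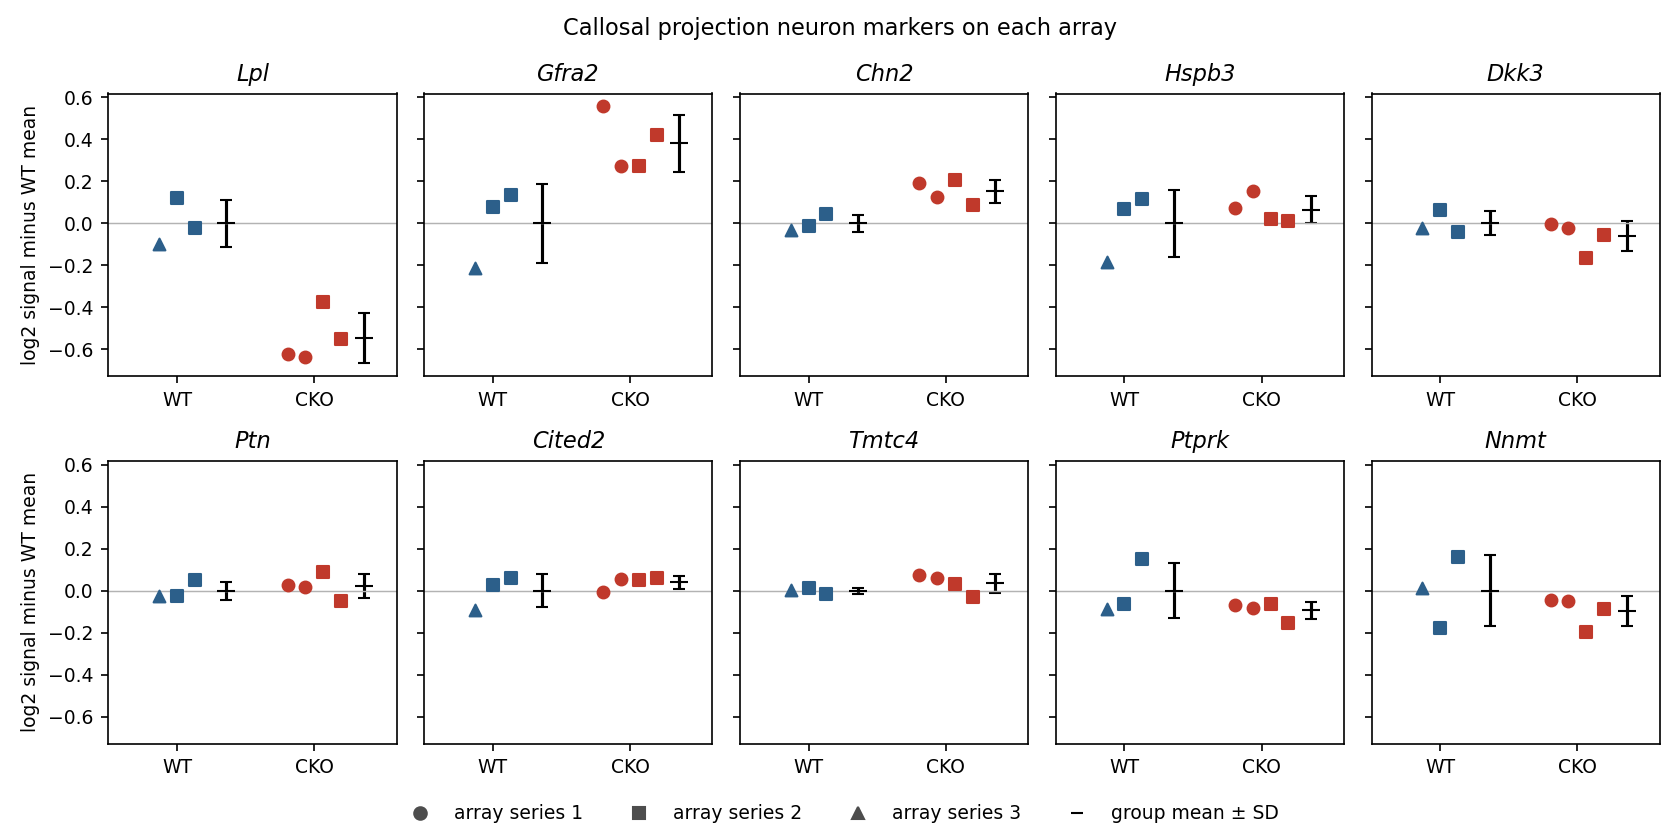
Log2 signal of each of the 10 callosal markers on each array, minus the WT mean of that gene; points are arrays (blue WT, red CKO; the shape gives the array series) and bars are group means ± SD (n = 3 WT, n = 4 CKO). For Lpl all 4 CKO arrays lie below the WT arrays, for Gfra2 and Chn2 all 4 lie above, and for the other 7 genes the groups overlap.

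Lpl (probe set 10572130) encodes lipoprotein lipase, the enzyme that releases fatty acids from the triglycerides of lipoproteins, and is a marker of callosal neurons in the developing cortex. Its log2 signal was 9.56 on CKO 1, 9.54 on CKO 4, 9.80 on CKO 34 and 9.63 on CKO 43. It was 10.08 on WT 6, 10.30 on WT 27 and 10.15 on WT 38. All 4 CKO arrays were below all 3 WT arrays, and the nearest arrays of the 2 groups, CKO 34 and WT 6, were 0.28 apart, more than the range within either group (0.26 in CKO and 0.22 in WT). The mean was 9.63 ± 0.12 (SD, n = 4) for CKO arrays and 10.18 ± 0.11 (SD, n = 3) for WT arrays. The log2 difference was -0.55 (SE 0.076), with a 95% confidence interval from -0.72 to -0.37. Lpl ranked 10 by p among 16144 genes, and 0.173% of genes had a larger difference in either direction. Its limma adjusted p was 0.134, with an unadjusted p of 8.31e-05.

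The Lpl signal was also lower in CKO within series 2, the 1 series that holds both groups. Among its 4 arrays the difference was -0.51 (SE 0.089). With the series joined into 2 as a fixed block it was -0.46 (SE 0.079). Leaving out each array in turn gave -0.60 to -0.49. The unadjusted p was under 0.05 under all 21 alternatives, and the adjusted p, between 0.0882 and 0.999, passed under none.

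Other cells of the neocortex also make Lpl, microglia among them. Of 11 microglia markers tested, 7 had a positive and 4 a negative difference, with a median of 0.04. The 1 with an unadjusted p under 0.05 with limma, beside 6.79% of all genes, was the calcium-binding protein gene Aif1. Aif1 was lower by -0.36 (SE 0.11, limma adjusted p 0.711) with groups that overlapped. The list averaged -0.04 to 0.08 on CKO arrays and -0.04 to 0.04 on WT arrays, relative to its mean over the 7. Of 12 endothelial and mural markers 9 were positive and none had an unadjusted p under 0.05 with limma; the cadherin gene Cdh5 had the smallest p, with 0.13 (SE 0.065, adjusted p 0.727). Their part in the Lpl difference was not tested. The proteins that serve lipoprotein lipase bind, fold, anchor or inhibit it. A list of such partners also held related lipid genes, Lipg and Fabp7 among them. Of its 10 genes tested none had an unadjusted p under 0.05 with limma, 7 were positive, and the median was 0.01. They included Gpihbp1, which anchors the enzyme on capillaries (0.13, SE 0.082), and Lmf1, which folds it (0.06, SE 0.037).

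Gfra2 (probe set 10416340) encodes the GDNF family receptor alpha that binds neurturin and signals with the kinase Ret. Its log2 signal was 10.09 on CKO 1, 9.81 on CKO 4, 9.81 on CKO 34 and 9.96 on CKO 43. In WT it was 9.32 on WT 6, 9.61 on WT 27 and 9.67 on WT 38. The CKO arrays were all above the WT arrays, by 0.13 between the nearest ones, which is less than the range within CKO (0.28) or WT (0.35); WT 6 was the lowest array and CKO 1 the highest. The mean was 9.92 ± 0.14 (SD, n = 4) for CKO and 9.54 ± 0.19 (SD, n = 3) for WT, a log2 difference of 0.38 (SE 0.0999, 95% confidence interval 0.15 to 0.61). The limma adjusted p was 0.694, with an unadjusted p of 0.00487.

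The size of the Gfra2 difference changed with the arrays used, and array and series cannot be told apart in this. Without WT 6, which is the only array of series 3, it was 0.27 (SE 0.087). Within series 2, which leaves out WT 6 and also CKO 1 and CKO 4, it was 0.24 (SE 0.069). The fixed block of 3 series gives the same 0.24 by design, since series 1 and series 3 hold 1 group each. Its SE was larger, 0.10, with a limma unadjusted p of 0.067. With striatal signal as a covariate the Gfra2 difference was 0.38, with a limma unadjusted p of 0.0525. Gfra2 stayed positive under all 21 alternatives, and under 19 of them its unadjusted p was under 0.05.

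Of 9 other ligands and receptors of the GDNF family tested, 5 were positive and 4 negative, with a median of 0.09. The artemin receptor gene Gfra3 had the smallest p, higher in CKO by 0.16 (SE 0.047, limma adjusted p 0.711). Its groups did not overlap, but their nearest arrays were only 0.01 apart. For Ret, the shared signalling kinase, the difference was 0.13 (SE 0.072) and for Nrtn, the ligand of Gfra2, 0.13 (SE 0.096), with overlapping groups in both.

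Chn2 (probe set 10538356) encodes beta-chimaerin, a protein that binds diacylglycerol and switches off the small GTPase Rac, which shapes the actin cytoskeleton of growing axons. Its log2 signal was 11.10 on CKO 1, 11.04 on CKO 4, 11.12 on CKO 34 and 11.00 on CKO 43, and 10.88 on WT 6, 10.90 on WT 27 and 10.96 on WT 38. The groups did not overlap, but CKO 43 and WT 38 were only 0.04 apart. CKO had a mean of 11.06 ± 0.055 (SD, n = 4) and WT of 10.91 ± 0.040 (SD, n = 3). The log2 difference was 0.15 (SE 0.044, 95% confidence interval 0.05 to 0.25), and 7.22% of genes tested differed by more. The limma adjusted p was 0.711, with an unadjusted p of 0.00821. It was 0.13 within series 2, with an unadjusted p of 0.0982, and 0.10 with striatal signal as a covariate, with an unadjusted p of 0.181.

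Chn2 lies on chromosome 6, as does Neurod6, the gene at the Nex-Cre locus. In the RefSeq order of GRCm38.p6 there are 16 protein-coding genes between them. Of these, 15 were tested, with a median of -0.01, and 4 had an unadjusted p under 0.05 in the limma fit, beside 6.79% of all genes. Of the 4, 1 was higher in CKO (Crhr2, 0.17) and 3 were lower (Ggct by -0.16, Mindy4 by -0.10 and Mturn by -0.09). These 4 were named after their values were seen, and whether the position of Chn2 bears on its difference was not tested. The longer stretch between Ptn and Neurod6, which holds Chn2, had 127 genes tested. At an unadjusted p under 0.05 with limma 8 of them were higher and 6 lower. Between Hspb3 and Nr2f1, on chromosome 13, 129 genes were tested, with 2 higher and 5 lower. Neurod6 itself was lower in CKO by -0.20 (SE 0.057, adjusted p 0.711).

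The sequence upstream of the members' transcript starts was read for the half-site that nuclear receptors of the COUP-TF class bind, since the altered gene encodes one. RefSeq windows of the 250 bases before a start (GRCm38.p6) were found for 6 of the 10 members, 10 windows in all, for Chn2, Hspb3, Ptn, Cited2, Tmtc4 and Ptprk. The motif AGGTCA, searched on both strands, was in 2 of these 10 windows, beside 14.0% of 32851 windows of all genes. The direct repeat, 2 such half-sites in the same direction with 1 base between them, was in 0 of the 10 and in 0.0335% of all. A match is a description of letters and not a binding site. The windows below are those of the 2 members with a match and, for contrast, the farthest upstream of 4 Chn2 starts, which has none; they are written 5′ to 3′ on the strand of the gene, with the motif in capitals. The Chn2 probe set does not tell these starts apart here.
Chn2, start 4, chr6:54272572-54272821, + strand: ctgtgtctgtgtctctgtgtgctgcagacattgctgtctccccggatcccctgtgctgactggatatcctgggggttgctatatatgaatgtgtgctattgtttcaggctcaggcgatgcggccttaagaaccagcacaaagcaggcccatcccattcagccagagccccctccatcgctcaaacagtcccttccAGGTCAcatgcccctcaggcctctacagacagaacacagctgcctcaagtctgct
Hspb3, chr13:113663677-113663926, - strand: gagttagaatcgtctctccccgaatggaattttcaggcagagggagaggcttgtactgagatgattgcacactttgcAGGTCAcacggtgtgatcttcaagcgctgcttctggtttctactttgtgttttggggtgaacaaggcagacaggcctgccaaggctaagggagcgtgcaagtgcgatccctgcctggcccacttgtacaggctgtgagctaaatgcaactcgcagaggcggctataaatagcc
Chn2, start 1, chr6:54039682-54039931, + strand: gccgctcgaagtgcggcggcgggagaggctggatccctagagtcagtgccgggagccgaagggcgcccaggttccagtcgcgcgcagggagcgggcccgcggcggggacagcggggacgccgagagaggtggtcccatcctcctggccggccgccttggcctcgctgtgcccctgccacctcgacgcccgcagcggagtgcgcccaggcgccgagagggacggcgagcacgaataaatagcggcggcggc

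In the start 4 window of Chn2 the motif begins 55 bases before the start, and in the Hspb3 window 173 bases before. The window of Chn2 start 1 was 74.8% G and C, against 55.2% for start 4. Of the 2 genes with a match, Chn2 was higher in CKO without overlap and Hspb3 had overlapping groups.

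Chimaerins act on Rac downstream of axon guidance receptors. Of 10 genes of the Rac pathway and its guidance inputs tested, 6 were positive, with a median of 0.01. The related alpha-chimaerin gene Chn1, an effector of the ephrin receptor Epha4, differed by -0.02 (SE 0.039). The semaphorin receptor gene Nrp2 was lower by -0.37 (SE 0.13, limma adjusted p 0.715), with all CKO arrays below the WT arrays. It was the 1 gene of this list at an unadjusted p under 0.05, beside 6.79% of all genes.

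Besides Lpl and Gfra2, 3 members encode secreted or surface proteins, Ptn, Dkk3 and Ptprk, and each had overlapping groups. Ptn encodes pleiotrophin, a heparin-binding growth factor; its log2 signal was 11.42 on CKO 1, 11.41 on CKO 4, 11.48 on CKO 34 and 11.34 on CKO 43, and 11.37, 11.37 and 11.44 on WT 6, WT 27 and WT 38. The highest and the lowest of the 7 arrays were both CKO, and the difference was 0.02 (SE 0.045, 95% confidence interval -0.08 to 0.12). Dkk3, a secreted protein of the Dickkopf family, was at 8.76, 8.73, 8.59 and 8.70 on CKO 1, CKO 4, CKO 34 and CKO 43 and at 8.74, 8.82 and 8.72 on WT 6, WT 27 and WT 38. CKO 34 was the lowest of the 7 arrays, and the difference was -0.06 (SE 0.051, 95% confidence interval -0.18 to 0.05). Ptprk encodes a receptor tyrosine phosphatase that binds itself between cells. It was at 10.89, 10.87, 10.89 and 10.80 on the 4 CKO arrays in that order and at 10.87, 10.89 and 11.11 on the 3 WT arrays. WT 38 lay farthest from the others, above them, and CKO 43 lay below them. The difference of -0.09 (SE 0.062) became -0.02 without WT 38.

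The remaining 4 members, Nnmt, Hspb3, Cited2 and Tmtc4, encode proteins that act inside the cell, and each had overlapping groups. Nnmt, nicotinamide N-methyltransferase, was at 7.78, 7.77, 7.62 and 7.73 on CKO 1, CKO 4, CKO 34 and CKO 43 and at 7.83, 7.65 and 7.98 on WT 6, WT 27 and WT 38. The WT arrays spanned 0.34, against 0.15 for CKO, and the difference of -0.10 (SE 0.078) went to -0.01 without WT 38 and -0.18 without WT 27. Hspb3, a small heat shock protein, was at 7.81, 7.89, 7.75 and 7.74 on the CKO arrays and at 7.55, 7.80 and 7.85 on the WT arrays. WT 6 was the lowest, and the difference of 0.07 (SE 0.075) turned to -0.03 without it. Hspb3 and Nnmt were the 2 members below the median signal of all probe sets.

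Cited2, a coactivator that binds CBP and p300, was at 11.92, 11.98, 11.98 and 11.99 on CKO 1, CKO 4, CKO 34 and CKO 43 and at 11.84, 11.95 and 11.99 on WT 6, WT 27 and WT 38. WT 6 was again the lowest, and the difference was 0.04 (SE 0.046, 95% confidence interval -0.07 to 0.15). Tmtc4, a mannosyltransferase of the endoplasmic reticulum that modifies cadherins, was at 10.10, 10.09, 10.06 and 10.00 on the CKO arrays and at 10.03, 10.04 and 10.01 on the WT arrays. The 3 WT arrays lay within 0.027 of each other, inside the CKO range, and the difference was 0.04 (SE 0.039, 95% confidence interval -0.05 to 0.13). For these 7 members the confidence intervals reached no further than -0.27 and 0.24, so changes of the size seen for Lpl lay outside them. The limma adjusted p of the 7 was between 0.755 and 0.918.

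Of the 10 members, 4 had their lowest signal on WT 6 (Gfra2, Chn2, Hspb3 and Cited2), 3 on CKO 43, 2 on CKO 34 and 1 on CKO 4. The highest signal fell on CKO 1, CKO 34, WT 27 and WT 38 for 2 members each and on CKO 4 and CKO 43 for 1 each. Without WT 6 the median difference of the 10 members was -0.01, against 0.03 with it. Without CKO 43, the array that stood apart in Xist, the difference of Lpl was -0.54 (SE 0.088), that of Gfra2 0.37 (SE 0.11) and that of Chn2 0.17 (SE 0.048). The number of members at an unadjusted p under 0.05 was 3 to 4 with each array left out in turn, beside 3.82% to 10.9% of all genes. It was 2 within series 2 (Lpl and Gfra2), beside 3.01% of all genes. With the 3 series as a fixed block it was 1, beside 3.78%, and with the striatal covariate 1, beside 11.1%, which is near the share of the members; Lpl was that 1 in both.

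Families of these members were counted in the same fit, where 6.79% of all genes had an unadjusted p under 0.05 with limma and 58.9% were positive. Of 6 small heat shock proteins other than Hspb3, 5 were positive, and Hspb1 (0.11, SE 0.035) and Hspb2 (0.10, SE 0.044) had an unadjusted p under 0.05, each above WT on all CKO arrays. Of 6 Dickkopf genes and their Kremen receptors 5 were positive, with Kremen1 at 0.12 (SE 0.046, unadjusted p 0.0352). With limma, none of 9 pleiotrophin partners (Ltk had the smallest p, 0.11, SE 0.051), 6 CITED cofactors and partners (Ep300, 0.07, SE 0.056), 3 TMTC genes (Tmtc2, 0.06, SE 0.055) or 2 phosphatases of the Ptprk class (Ptpru, 0.16, SE 0.075) had an unadjusted p under 0.05. The adjusted p of all genes named in this paragraph was 0.711 or above.

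Other callosal and upper-layer markers also differed in both directions, and were not tested against the 10 members. Of 20 tested, 8 were positive and 12 negative, with a median of -0.04, and 4 had an unadjusted p under 0.05, 1 higher and 3 lower, beside 6.79% of all genes. Limch1, an actin-binding protein gene and callosal marker, had 10.64, 10.66, 10.58 and 10.59 on CKO 1, CKO 4, CKO 34 and CKO 43 and 10.96, 10.81 and 10.88 on WT 6, WT 27 and WT 38. All CKO arrays were below the WT arrays, and the difference was -0.27 (SE 0.046, limma adjusted p 0.301); within series 2 it was -0.26. Inhba, a subunit of activin, was lower by -0.30 (SE 0.108) and Nrp1, a semaphorin receptor of callosal axons, by -0.14 (SE 0.059), both with overlapping groups. Rorb, a nuclear receptor gene of layer 4, was higher by 0.33 (SE 0.122). Its groups nearly touched, with CKO 43 above WT 38 by only 0.0009. The LIM-domain gene Lmo4, which marks callosal neurons of rostral cortex, differed by -0.10 (SE 0.053, limma unadjusted p 0.0874). All its CKO arrays were below the WT arrays, with the nearest only 0.02 apart. The upper-layer genes Cux1 (-0.03, SE 0.040) and Cux2 (-0.09, SE 0.066) had overlapping groups.

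Of 12 corticofugal genes, which mark the alternative fate, 8 were positive and 4 negative, with a median of 0.04, beside 58.9% positive over all genes. Bcl11b was higher by 0.15 (SE 0.040, limma adjusted p 0.695) and Tbr1, a transcription factor of layer 6, by 0.14 (SE 0.057), with all CKO arrays above WT, while Sox5, a transcription factor of early-born neurons, was lower by -0.14 (SE 0.049) on all CKO arrays. For Tbr1 the nearest arrays of the 2 groups were only 0.02 apart. These 3 genes had an unadjusted p under 0.05 with limma, beside 6.79% of all genes. Pcp4 was higher by 0.09 (SE 0.042, limma unadjusted p 0.0541), with all CKO arrays above WT and the nearest only 0.03 apart. Fezf2 differed by only 0.04 (SE 0.055), with overlapping groups.

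**Figure D2:**
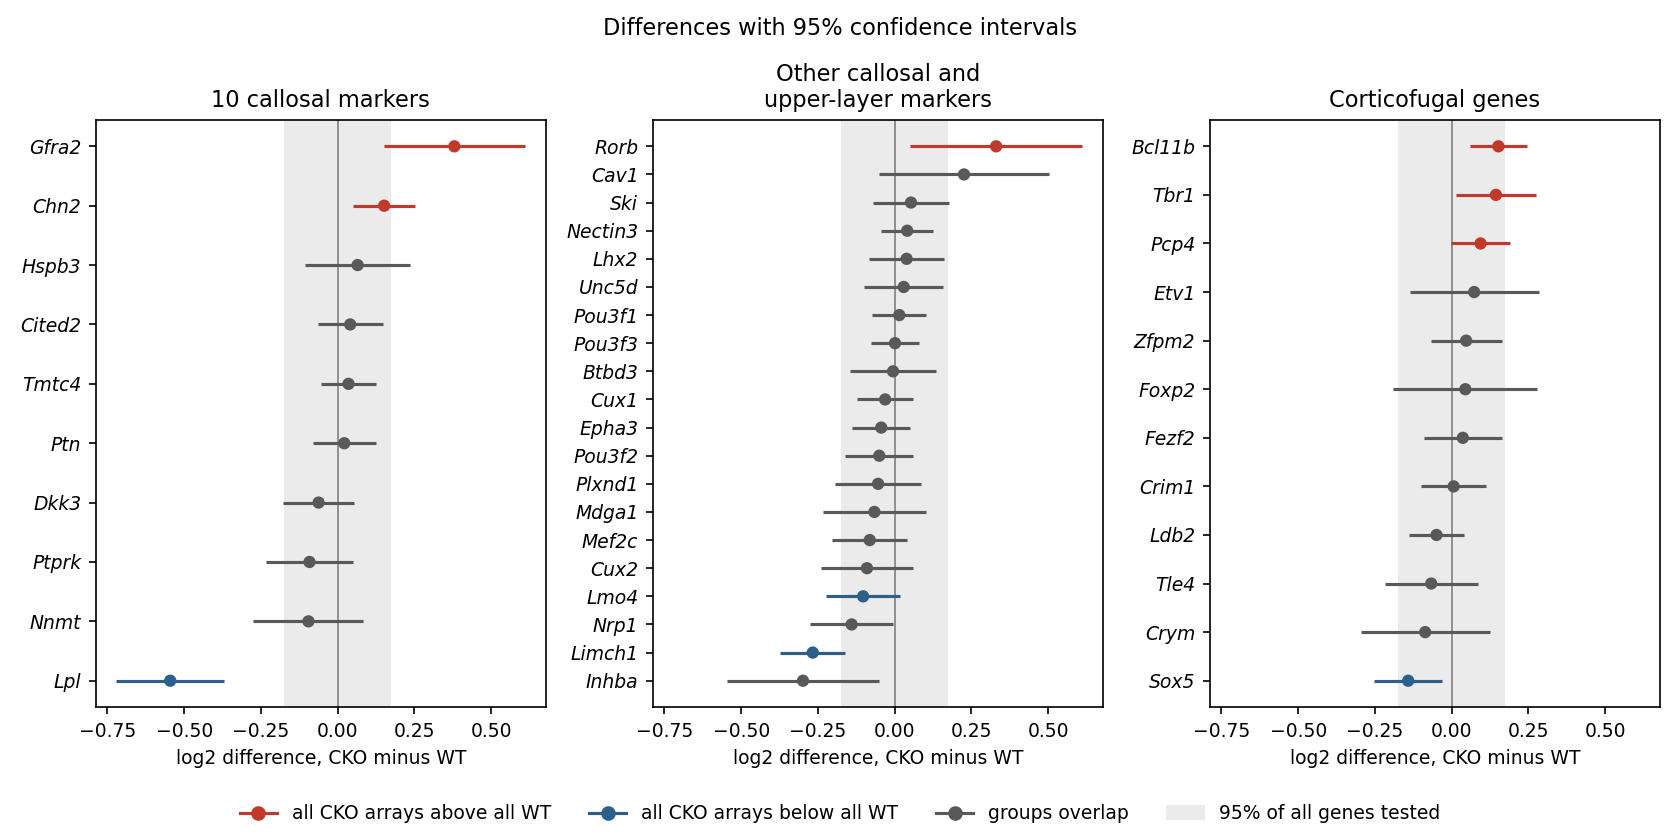
Log2 differences, CKO minus WT, with 95% confidence intervals from limma for the 10 callosal markers, 20 other callosal and upper-layer markers and 12 corticofugal genes; the grey band holds 95% of all genes tested (0.17 to either side), and colour shows groups that do not overlap. Lpl (-0.55) and Gfra2 (0.38) lie outside the band on opposite sides, and the other members lie inside it.

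List means separated the groups for striatal markers and for radial glia and astrocyte markers. Those of the other cell types overlapped between CKO and WT. Striatal markers were mostly higher in CKO, 9 of 11 positive with a median of 0.24, beside 58.9% positive over all genes. In the limma fit 6 had an unadjusted p under 0.05, beside 6.79% of all genes, and none passed an adjusted p of 0.05. The list averaged -0.06 to 0.31 on CKO arrays against -0.28 to -0.10 on WT arrays. They were led by the signalling gene Ppp1r1b (0.43, SE 0.068), Zfp503 (0.24, SE 0.063), the transcription factor gene Ebf1 (0.79, SE 0.207) and Isl1 (0.83, SE 0.281). Isl1 had overlapping groups, with 7.74 on CKO 4 against 7.23 to 7.91 on WT arrays. Six3 overlapped too, with 7.96 on CKO 4 against 7.48 to 8.06 in WT. Ppp1r1b and Drd1 instead had their highest signal on CKO 4, so the striatal genes did not all follow 1 pattern there. Radial glia and astrocyte markers were positive for 12 of 12, beside 58.9% of all genes, with a median of 0.13. The smallest differences were those of Vim (0.003, SE 0.039) and Fabp7 (0.005, SE 0.040). The list mean did not overlap (0.01 to 0.09 in CKO, -0.12 to -0.02 in WT). With limma 2 of the 12 had an unadjusted p under 0.05, beside 6.79% of all genes, the transcription factor genes Sox2 (0.20, SE 0.048) and Sox9 (0.16, SE 0.063). Of 7 meningeal and choroid plexus markers all were positive, with a median of 0.22. Their list mean overlapped between the groups, with -0.05 to 0.23 on CKO arrays and -0.16 to 0.005 on WT arrays. With limma 4 of them had an unadjusted p under 0.05, beside 6.79% of all genes. They were Slc6a13 (0.22, SE 0.064), Col1a2 (0.33, SE 0.104), Col3a1 (0.15, SE 0.056) and Col1a1 (0.31, SE 0.119). Of 12 interneuron markers 8 were positive, but Npy (-0.51, SE 0.064) and Htr3a (-0.60, SE 0.166) were lower on all CKO arrays. For Htr3a the nearest arrays, CKO 43 and WT 38, were only 0.004 apart. Dlx5 (0.39, SE 0.116) and Dlx2 (0.51, SE 0.178) were higher with overlap. The interneuron list averaged -0.20 to 0.17 on CKO arrays and -0.14 to 0.01 on WT arrays, with CKO 4 the lowest.

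Of 9 oligodendrocyte lineage markers 8 were positive, with Olig2 at 0.27 (SE 0.138) and none at an unadjusted p under 0.05 with limma. The 2 red blood cell genes tested were lowest on WT 38, with Hbb-y at 8.30 there and 9.77 to 10.97 elsewhere. Of 5 markers of other brain regions none had an unadjusted p under 0.05 with limma; Hoxb3 had the smallest p, at 0.08 (SE 0.053). Of 5 neocortical markers tested Neurod6 was lower and Tbr1 higher, with a median of -0.002 over the list. With the mean of 5 striatal genes as a covariate the Lpl difference was -0.63, Gfra2 0.38 and Chn2 0.10. The part of glial and meningeal signal in the differences of the members was not tested.

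**Figure D3:**
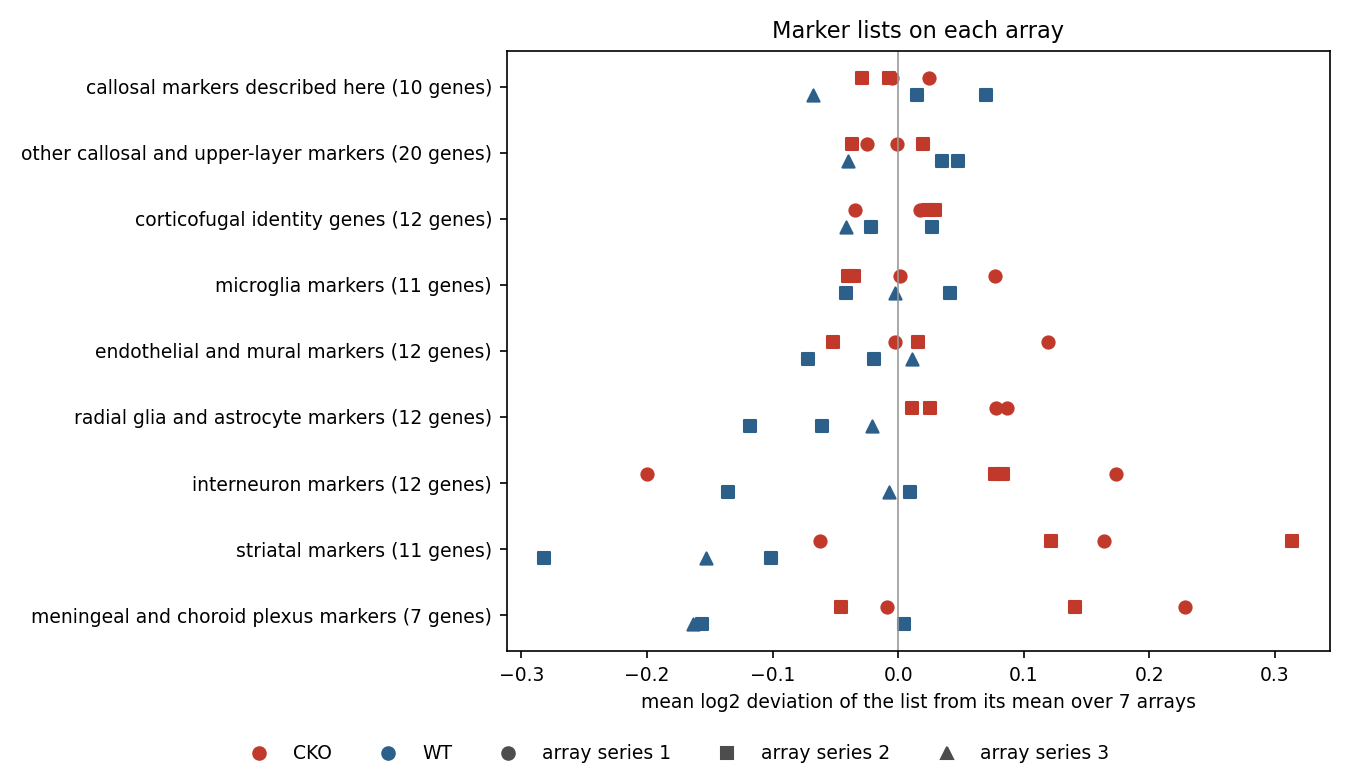
Mean deviation of each marker list from its own mean over the 7 arrays, in log2 units, 1 point per array (blue WT, red CKO; the shape gives the array series). The list of 10 callosal markers runs from -0.03 to 0.03 on CKO arrays, inside the WT range of -0.07 to 0.07, while striatal markers and radial glia and astrocyte markers lie higher on each CKO array than on each WT array.

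The genes whose signal followed these 3 members most closely over the 7 arrays were named by Pearson's r, as a description that includes the group difference itself. For Lpl they were the adhesion molecule gene Clmp (r = 0.99), the potassium channel subunit gene Kcnab1 (r = 0.98) and the nicotinic receptor gene Chrna7 (r = 0.98). All 3 were lower in CKO, by -0.21 (SE 0.047) for Clmp, -0.58 (SE 0.060) for Kcnab1 and -0.30 (SE 0.042) for Chrna7. Kcnab1, with a limma adjusted p of 0.0345, was among the 4 genes past the threshold; leaving out any 1 array ended the call (limma adjusted p 0.0874 to 0.273). For Gfra2 they were Birc3 (r = 0.99), Pcna (r = 0.98) and Prdm4 (r = 0.97), with differences of 0.17, 0.05 and 0.07. For Chn2 they were Mgp (r = 0.98), the glutamine synthetase gene Glul (r = 0.98) and Zfp352 (r = 0.97), with differences of 0.03, 0.11 and 0.13. Spearman's rho of the 9 genes was between 0.857 and 1. All genes of an array share its series and its mix of tissue.

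**Figure D4:**
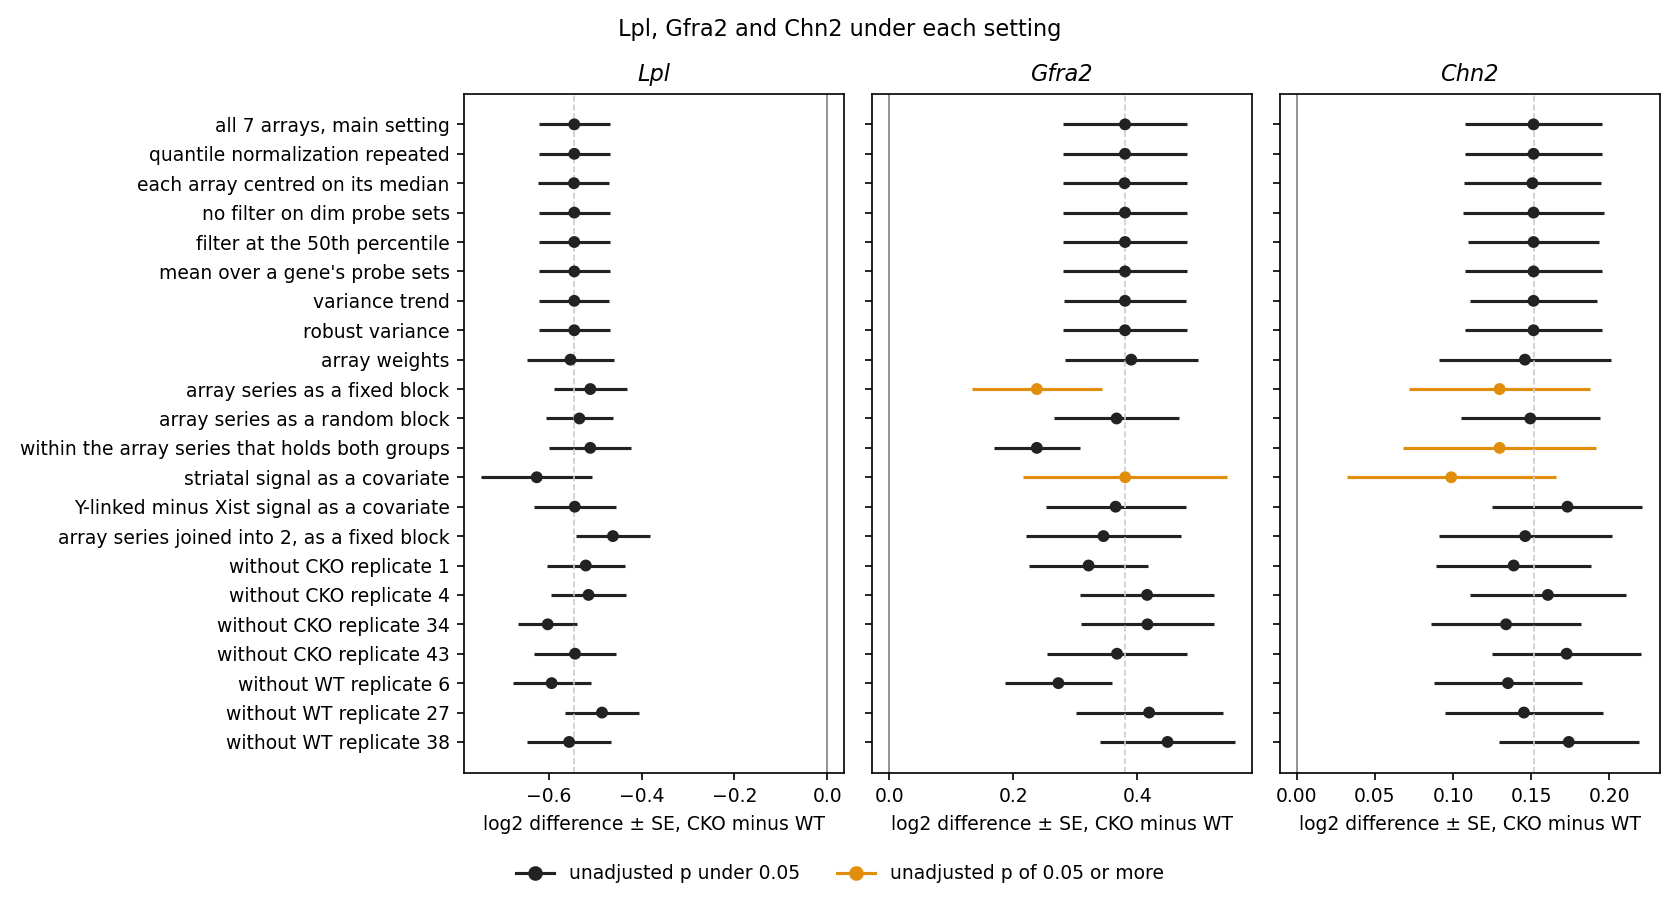
Log2 difference ± SE of Lpl, Gfra2 and Chn2 under the main setting and 21 alternatives; the horizontal axes differ in range, the dashed line marks the main value, and orange marks an unadjusted p of 0.05 or more. Lpl stays between -0.63 and -0.46 and Gfra2 between 0.24 and 0.45, and Chn2 between 0.10 and 0.17.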

How the data were processed

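Total RNA of mouse whole neocortex was measured on 7 arrays, 4 CKO and 3 WT. The authors deposited log2 signals that RMA had made in Expression Console (Affymetrix), as the submitters' processing notes record, per the labels; RMA gives the arrays nearly the same distribution, so differences are relative to the whole array. The sources used here give no version or genome build for this step.

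Only the 21786 of 35468 probe sets that GEO's annotation pairs with a single symbol were named; 1621 carried several and 12061 none. Members were matched to RefSeq (GRCm38.p6) by Entrez identifier, all 10 with the same symbol. Probe sets with a mean below the 25th percentile (6.84) were left out and the brightest stood for each gene. CKO was compared with WT by limma 3.58.1 (lmFit, eBayes) in R 4.3.3 without covariates (residual degrees of freedom 5, prior 3.28). P-values were adjusted over 16144 genes by Benjamini-Hochberg, with a threshold of 0.05. SEs, 95% confidence intervals and p-values are limma's. The fit was tested on simulated data. Figures used matplotlib 3.10.9. The number of arrays limits the precision.

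The members and gene lists were chosen with earlier results of these data known. Named were all members, Nr2f1, Neurod6, up to 4 genes per list at an unadjusted p under 0.05 (else the smallest p), and the 3 genes with descriptive symbols most like Lpl, Gfra2 and Chn2. Other genes were named for their role, after their values were seen. Alternatives changed normalization, filter, probe set choice, variance model, array weights, array series, covariates and the arrays used; the series joined into 2 was added after the data were seen.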

Additional observations from a re-analysis of the deposited data

How the results depend on the processing

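With limma, 4 genes passed an adjusted p of 0.05 over all arrays. This became 1 with array weights, with Y-linked minus Xist signal as a covariate or with the series joined into 2. It became 0 with the series as a fixed block (611 genes at an unadjusted p under 0.05), within series 2 (486) and with the striatal covariate (1799), and 1 to 6 with each array left out in turn. Callosal markers at an unadjusted p under 0.05 went from 3 to 1 with the series as a fixed block (beside 3.78% of all genes), to 1 with the striatal covariate (11.1%) and to 2 within series 2 (3.01%), and were 3 to 4 with each array left out (3.82% to 10.9%). Their median difference, 0.03, was -0.036 with the series as a fixed block and within series 2, and -0.015 to 0.040 with each array left out. The fixed block and series 2 give each gene the same difference by design, since series 1 and series 3 hold 1 group each. Of 1202 values of single genes under 21 alternatives, 10 changed sign. Hspb3 was -0.075 with the series as a fixed block and within series 2. With each array left out Hspb3 was -0.026 (without WT 6) to 0.12, Cited2 -0.0038 (without WT 6) to 0.071 and Ptn -0.0010 (without CKO 34) to 0.047. With the striatal covariate Ptn was -0.027, Dkk3 0.038, Tmtc2 -0.037, Dlx2 -0.036 and Isl1, which is in that covariate, -9.18e-05. Kcnab1 lost its call under 13 alternatives. The cause of these changes was not tested. The filter at the 50th percentile left out the members Hspb3 and Nnmt, and also Kcnab1, which has no value under that setting. No paired analysis was possible because the groups share no replicate numbers. The array count limits what could be seen: the median SE over all genes was 0.055.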

Other observations

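After the group means were taken out, the members varied with each other to different degrees over the 7 arrays. Chn2 and Ptn had the highest Pearson correlation of their deviations (r = 0.92), and Lpl and Nnmt the lowest (r = -0.73). For Lpl and Gfra2, which differed in opposite directions between the groups, it was 0.06. These values describe 45 pairs on arrays that share their processing, and no p-value was computed.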
